A study of Mus musculus with 8 samples.

Results

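Ndrg1, Pdk1 and other hypoxia-inducible genes were examined in mouse aortic smooth muscle cells given an excess of moR-21, a small RNA offset from microRNA miR-21. The set held 10 gene symbols (Ndrl, Ndrg1, Pdk1, Slc2a1, P4ha1, P4ha2, Ankrd37, Egln3, Vegfa and Bnip3), read at every probe that carried one of them, which gave 13 of the 25697 probes on the array. Ndrl is a synonym of Ndrg1 in RefSeq, so the 10 symbols stand for 9 genes. The genes were chosen with the measured differences of these same samples known, as familiar targets of low oxygen around Ndrl, Ndrg1 and Pdk1, which were higher after moR-21. Their differences between the groups are therefore given as a description, with no test.

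The cells were primary mouse aortic smooth muscle cells grown out of explants of several aortas, kept before use in low-glucose medium with 5% charcoal-treated serum. They were transfected with RNAiMAX and a scrambled control oligo or the moR-21 mimetic, each at 5 nM, and RNA was taken 48 h later. Illumina bead arrays measured 3 control and 3 moR-21 samples, and control 1 and moR-21 3 were run on arrays A and B, for 8 arrays in all. The labels name no low-oxygen treatment in either group, and a description field in the labels writes AoECs where the cell type field names smooth muscle cells. The methods name C57BL/6 mice, male for the carotid injury work, but do not state the strain, sex or age of the mice that gave the aortas. No source states that the 3 samples of a group came from separate cultures, so p-values measure the spread between these samples, which may be technical.

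Cells answer low oxygen mainly through the hypoxia-inducible factors (HIF). When oxygen is plentiful, prolyl hydroxylases of the Egln family mark the HIF alpha subunit, and a ligase built from Vhl, elongins, a cullin and Rbx1 sends it for degradation. When oxygen or the hydroxylases fall short, the alpha subunit pairs with Arnt, binds a short DNA core called the hypoxia response element, and raises genes for glucose uptake and glycolysis, for restraint of mitochondrial pyruvate use, for vessel growth and for collagen maturation. In smooth muscle of the vessel wall the same program is known in injury and remodelling, and several of its genes also answer growth factors and iron shortage.

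MoR-21 comes from the primary transcript of miR-21, from the bases just 5′ of the microRNA. The annotated hairpin of Mir21a is shown for that reason, with miR-21a-5p in capitals, so that the offset RNA lies in and beyond the lower case bases that precede the capitals. The hairpin has 92 bases at chr11:86584067-86584158 on the minus strand (RefSeq, GRCm38.p6), and the microRNA fills its bases 18 to 39.
Mir21a hairpin: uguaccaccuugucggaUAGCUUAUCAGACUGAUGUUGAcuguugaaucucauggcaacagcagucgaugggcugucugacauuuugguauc

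The promoters of the members were searched for the core of the hypoxia response element, ACGTG or GCGTG, on both strands, where the reverse strand reads CACGT or CACGC. The windows ran from 250 bases before to 50 after each start in RefSeq (GRCm38.p6), and 8 of the 9 genes, all but Ndrg1, matched an entry. Each of the 8 held at least 1 core, and each also did in the bases before the start alone. For Vegfa the matches all lay in the window at chr17:46025114-46025413, around a start inside the annotated gene. Its window at the 5′ end of the gene held 0. Over all 27025 genes with an entry, 46.7% held one in the whole window and 41.5% before the start. The G and C content of the members' windows was 65.3% or more in 6 of 10 windows, and between 40.3% and 62.0% in the other 4. A match is a description of the letters and was not shown to be a bound site. Stretches upstream of the gene are printed for members whose moR-21 samples all lay above the control samples. A stretch of Bnip3, which had the most matches, is printed too. They are on the strand of the gene with the core letters in capitals, and not every match lies in a printed stretch. No stretch is printed for Ankrd37, whose matches lie inside the annotated gene, or for P4ha1, where the groups overlapped. Because the stretches were chosen by the measured values, no tie of the core to the differences is read from them. The stretches lie at chr2:71873131-71873165 on the plus strand for Pdk1, chr4:119108669-119108728 on the plus strand for Slc2a1, chr11:54100802-54100874 on the plus strand for P4ha2, chr12:54204084-54204118 on the minus strand for Egln3 and chr7:138909586-138909638 on the minus strand for Bnip3.
Pdk1, 93 to 59 bases before the start: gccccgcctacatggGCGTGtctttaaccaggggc
Slc2a1, 76 to 17 bases before the start: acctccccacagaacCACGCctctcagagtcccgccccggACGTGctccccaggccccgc
P4ha2, 122 to 50 bases before the start: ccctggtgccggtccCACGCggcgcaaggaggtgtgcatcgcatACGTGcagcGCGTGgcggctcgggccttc
Egln3, 244 to 210 bases before the start: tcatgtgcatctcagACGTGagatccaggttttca
Bnip3, 132 to 80 bases before the start: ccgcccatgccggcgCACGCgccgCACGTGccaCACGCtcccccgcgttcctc

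**Figure D1:**
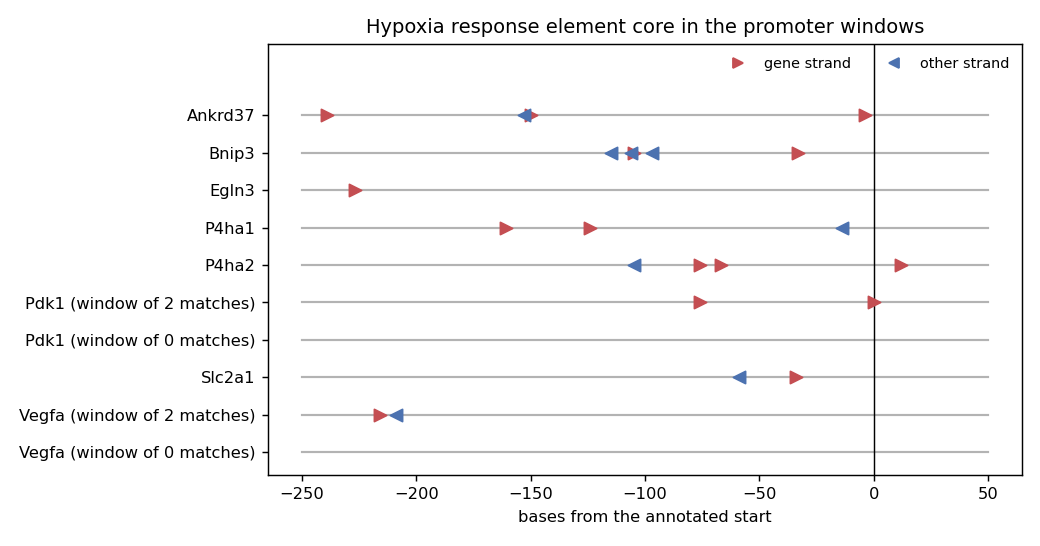
Positions of the hypoxia response element core (ACGTG or GCGTG) in the RefSeq promoter windows of 8 member genes, in bases from the annotated start, with triangles for the gene's strand (red) and the other strand (blue). Pdk1 and Vegfa each have 1 window with 2 matches and 1 with 0, and Bnip3 has the most, 5.

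Bnip3 had 5 matches in its window, 1 of its core pairs forming the palindrome CACGTG, and its probe was not detected on any array. Ankrd37 and P4ha2 had 4 each and P4ha1 had 3. Pdk1, Slc2a1 and Vegfa had 2 each in the window with most matches, which for Vegfa lay inside the annotated gene, and Egln3 had 1. Of all 32851 windows in the table, 43.8% held a core, 8.9% held 3 or more and 7.2% held CACGTG.

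Signals are given as log2 of the quantile-normalized intensity, on which 1 unit is a doubling, and they compare samples at one probe and not one probe with another. A probe counted as detected on an array when its detection p-value was under 0.01, and the lowest signal above background was between 6.82 and 6.84 on the 8 arrays. Of the 13 member probes 10 were detected on all 8 arrays and 3 on none. The probes detected on no array were that of Bnip3, 1 of 2 for Egln3 and 1 of 3 for Vegfa. These 10 probes, among 11651 tested, cover 9 symbols and 8 genes. Calls in limma needed a fold change above 1.3 together with an adjusted p under 0.002.

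Of the 10 detected member probes 4 were called higher after moR-21 (Ndrl, Ndrg1, Pdk1 and Slc2a1), 0 were called lower and 6 were not called. Over all tested probes 6.96% were called, 3.12% higher and 3.85% lower. In 7 of the 10 probes all 3 moR-21 samples were above all 3 control samples, in 0 they were all below, and in 3 the groups overlapped. Among all tested probes 23.7% had every moR-21 sample above every control sample and 21.2% had every one below. Because the members were chosen on this contrast, nothing is read from these shares. The median log2 difference of the 10 probes was 0.31, and over all tested probes it was 0.0048, with quartiles of -0.085 and 0.097. In a bulk sample, more cells that carry a transcript and more transcript per cell cannot be told apart.

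**Figure D2:**
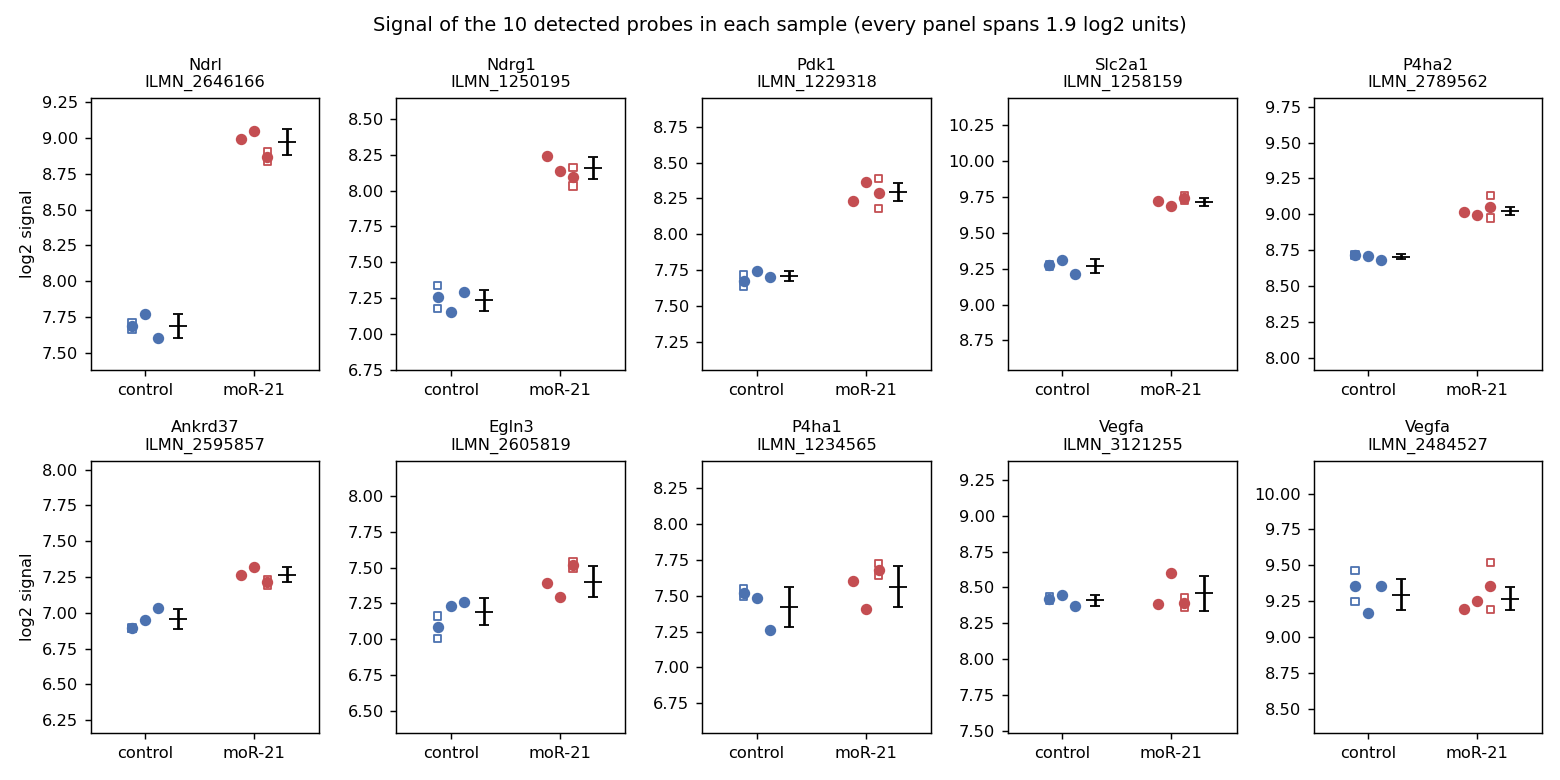
Log2 signal of the 10 detected member probes in each control (blue) and moR-21 (red) sample, with arrays A and B of control 1 and moR-21 3 as open squares and the group mean and SD in black (n = 3 samples a group). The groups stand clear of each other for Ndrl, Ndrg1, Pdk1, Slc2a1, P4ha2, Ankrd37 and Egln3 and overlap for P4ha1 and for both Vegfa probes.

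Ndrg1 (chromosome 15, 66929318 to 66969641, GRCm38.p6) encodes a cytoplasmic protein induced by low oxygen, iron shortage and growth arrest, and it was read by 2 probes on the array. The probe named Ndrl (ILMN_2646166) had log2 signals of 7.69, 7.77 and 7.60 in the control samples and 8.99, 9.05 and 8.87 in the moR-21 samples. The highest control sample lay more than 1 log2 unit below the lowest moR-21 sample, and the spread within a group was far smaller, with SDs of 0.083 and 0.091 (n = 3 each). The difference was 1.28 ± 0.058 (SE), a 2.43-fold higher signal, and only 2 of the 11651 tested probes had a larger rise. On the scale of the deposited intensities the mean went from 204 to 496.

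The probe named Ndrg1 (ILMN_1250195) gave log2 signals of 7.26, 7.15 and 7.29 in the control samples and 8.24, 8.14 and 8.10 in the moR-21 samples. Again no sample of one group reached the other. Its difference was 0.92 ± 0.054 (SE), a 1.898-fold higher signal. It ranked 17 among all rises. Both probes of the gene were higher, with 95% intervals of 1.16 to 1.41 for Ndrl and 0.81 to 1.04 for Ndrg1. After normexp background correction the differences were 1.69 ± 0.088 (SE) and 1.46 ± 0.091 (SE), so unequal rises are not read from the 2 probes. Where on the transcripts the probes lie was not settled here. Of the related genes, Ndrg3 differed by 0.10 and was not called (adjusted p = 0.192, limma), and the difference was 0.048 without control 2 and 0.165 without control 1. Ndrg2 lay at the limit of detection, above background on 2 of 4 control and 3 of 4 moR-21 arrays, so a fall in it could not have been read here. It differed by 0.049 and was not called (adjusted p = 0.514, limma). Ndrg4 was not detected.

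Pdk1 (chromosome 2, 71873215 to 71903858) is a kinase of mitochondria that phosphorylates pyruvate dehydrogenase and so holds pyruvate back from the citric acid cycle. Its log2 signals were 7.68, 7.74 and 7.70 in the control samples and 8.23, 8.36 and 8.29 in the moR-21 samples. The lowest moR-21 sample was well above the highest control sample. The difference was 0.59 ± 0.049 (SE), a 1.502-fold higher signal, and the deposited intensities averaged 207 in the control and 313 in the moR-21 samples. Arrays A and B of moR-21 3 differed by 0.21 at this probe, less than the difference between the groups.

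The other genes of pyruvate dehydrogenase control did not move as a block. Of 9 on the array 8 were detected, 0 were called higher and 1 lower, with a median log2 difference of 0.03. The gene called lower was Pdk4, the kinase isoform best known from fasting and lipid use, at 8.06, 7.89 and 7.96 in the control samples and 7.50, 7.51 and 7.55 in the moR-21 samples. It fell by 0.45 (SE 0.052, adjusted p = 1.58e-05, limma), and after normexp by 0.68. The isoform Pdk3 had the largest rise of that list, 0.27 ± 0.047 (SE), with an adjusted p of 4.79e-04 in limma but a fold change of 1.21, below the cutoff.

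Slc2a1 (chromosome 4, 119108745 to 119137330) encodes the widely expressed glucose transporter GLUT1. The control samples read 9.28, 9.31 and 9.21 and the moR-21 samples 9.72, 9.69 and 9.74, in log2 signal. The groups did not overlap. The difference was 0.45 ± 0.047 (SE), or 1.37-fold, close above the fold cutoff of 1.3, and the interval of the fold ran from 1.27 to 1.47.

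Downstream of glucose uptake, 14 of 16 glycolytic genes on the array were detected, 7 were called higher and 0 lower, and the median log2 difference was 0.35. Pfkl, the liver-type phosphofructokinase, had the largest rise at 1.17 ± 0.055 (SE, adjusted p = 2.31e-09, limma), while a dimmer probe of the same gene differed by 0.02 and was not called. The others were Aldoa, Pkm2, Eno1, Ldha, Pgam1 and Gapdh, which rose by between 0.41 and 0.82. The call of Pgam1 was lost in 3 of 16 alternatives, after normexp, with no detection filter and with array B alone. The lowest difference was that of Aldoc, which was not above background on any of the 4 moR-21 arrays. Its control mean was 1.05-fold above the lowest signal above background on those arrays, with no allowance for the spread between samples. Aldoc was not called (adjusted p = 0.0192, limma).

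P4ha2 and P4ha1 encode alternative catalytic subunits of collagen prolyl 4-hydroxylase, which stabilizes the collagen triple helix. P4ha2 (chromosome 11, 54100924 to 54131668) read 8.72, 8.71 and 8.68 in the control samples and 9.01, 8.997 and 9.05 in the moR-21 samples. The groups were tight and did not overlap, with SDs of 0.018 and 0.028. The difference of 0.32 ± 0.044 (SE) is 1.25-fold, under the fold cutoff, so the probe was not called.

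P4ha1 (chromosome 10, 59323197 to 59373304) read 7.52, 7.48 and 7.26 in the control samples and 7.60, 7.41 and 7.68 in the moR-21 samples. Here 1 moR-21 sample lay below 2 control samples. The difference was 0.14 ± 0.075 (SE), with a 95% interval from -0.021 to 0.30. It was 0.061 without control 3, 0.083 without moR-21 3 and 0.22 without moR-21 2, and 0.24 after normexp. Among the other collagen hydroxylases 5 of 7 were detected and 1 was called higher, Plod1, a lysyl hydroxylase, at 0.39 ± 0.054 (SE, adjusted p = 7.41e-05, limma). That call was lost in 5 of 16 alternatives, among them those without control 3, moR-21 1 or moR-21 2, where the difference was between 0.36 and 0.37, and after normexp it was 0.74. The median of the list was -0.13, and P4hb, the beta subunit shared by P4ha1 and P4ha2, had its largest fall at -0.16 and was not called (adjusted p = 0.0591), with -0.089 without moR-21 2 and -0.23 without moR-21 1. Plod2, another lysyl hydroxylase, was counted with the other hypoxia-inducible genes instead. It was called lower, at -0.64 (adjusted p = 3.70e-07, limma).

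Egln3 and Ankrd37 are direct and sensitive targets of HIF. Egln3 (chromosome 12, 54178981 to 54203874) encodes a prolyl hydroxylase that acts back on HIF. Its detected probe read 7.08, 7.23 and 7.26 in the control samples and 7.39, 7.30 and 7.52 in the moR-21 samples. The groups did not overlap, but only by a small margin, and the difference was 0.21 ± 0.062 (SE), or 1.16-fold, and 0.40 after normexp. Arrays A and B of control 1 differed by 0.16 at this probe.

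Ankrd37 (chromosome 8, 45996908 to 46000414) encodes a small ankyrin repeat protein. It was the dimmest of the 10 probes, with deposited intensities from 119 to 158. The control samples read 6.89, 6.95 and 7.03 and the moR-21 samples 7.27, 7.32 and 7.21, so the groups stood apart. The difference was 0.31 ± 0.051 (SE), or 1.24-fold, under the cutoff. With the background subtracted by normexp it was 0.66, or 1.58-fold, and the probe was called, the only 1 of 16 alternatives that called it.

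Vegfa (chromosome 17, 46016993 to 46032377) encodes the main growth factor for endothelial cells and is a classic HIF target. Probe ILMN_3121255 read 8.42, 8.44 and 8.37 in the control samples and 8.39, 8.60 and 8.39 in the moR-21 samples. Only moR-21 2 stood above the control samples. The difference was 0.05 ± 0.059 (SE), with a 95% interval from -0.077 to 0.17, and it was -0.021 without moR-21 2.

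Probe ILMN_2484527 of Vegfa read 9.35, 9.17 and 9.36 in the control samples and 9.19, 9.25 and 9.35 in the moR-21 samples, with complete overlap. The difference was -0.03 ± 0.060 (SE), with an interval from -0.16 to 0.10. It was -0.12 with array A alone and 0.06 with array B alone of the repeated samples. The upper ends of the intervals of these probes correspond to 1.13-fold and 1.07-fold. The remaining probe of Vegfa, ILMN_3045723, was not detected.

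Around Vegfa, 5 of 9 genes for VEGF ligands and receptors were detected, 2 were called higher and 0 lower, with a median of 0.36. Figf, which encodes the ligand VEGF-D, read 9.62, 9.67 and 9.54 in the control samples and 10.44, 10.34 and 10.38 in the moR-21 samples. It rose by 0.78 ± 0.050 (SE, adjusted p = 5.88e-08, limma). Nrp1, a co-receptor of VEGF, rose by 0.41 ± 0.048 (SE, adjusted p = 1.78e-05), and its other probe by 0.43. Flt1, a receptor, had the lowest value, -0.02. The receptors Kdr and Flt4, typical of endothelium, were not detected.

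Bnip3 (chromosome 7, 138890836 to 138909506) encodes a protein of the outer mitochondrial membrane that promotes mitophagy. Its probe was detected on no array, with intensities from 91.5 to 98.1 and detection p-values from 0.595 upward. An undetected probe gives no bound on the gene beyond that its signal was not above background on this array. The related Bnip3l, measured in the list of other hypoxia-inducible genes, differed by 0.26 and was not called (adjusted p = 0.00458).

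**Figure D3:**
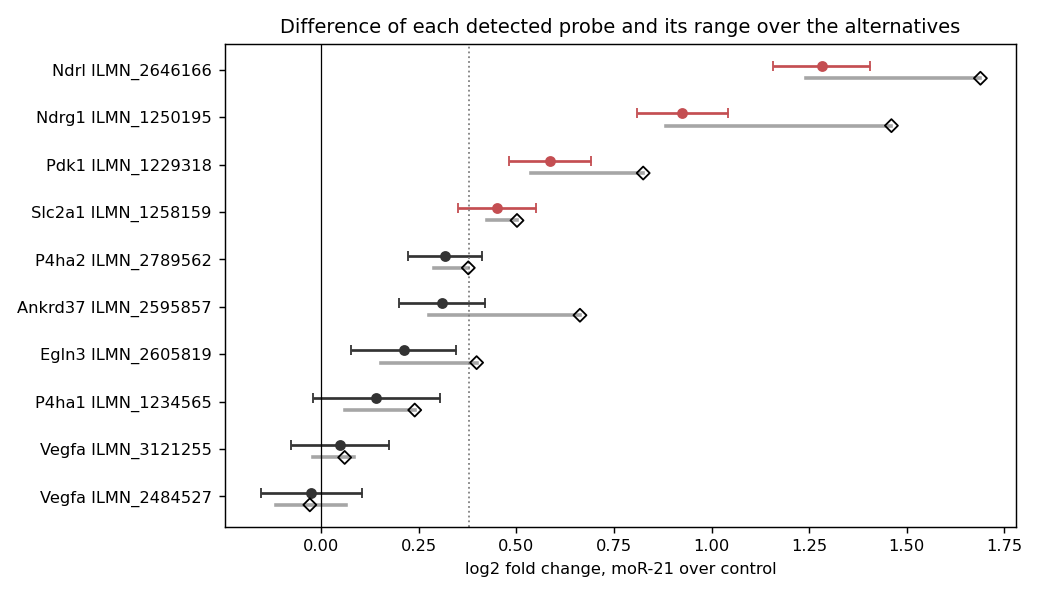
Log2 fold change of moR-21 over control for the 10 detected member probes, with the 95% interval of the limma fit (points and bars, red where called) and, below each, the range over 16 alternative settings in grey with the value after normexp background correction as an open diamond. The dotted line is the fold cutoff of 1.3, and 4 probes, from Ndrl at 1.28 to Slc2a1 at 0.45, lie past it.

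The background correction changed sizes more than any other setting for the dim members. After normexp the difference was 1.69 for Ndrl, 1.46 for Ndrg1 and 0.82 for Pdk1, where no background was subtracted in the values above. Without correction, 2.43-fold, 1.898-fold and 1.502-fold correspond to 3.22-fold, 2.75-fold and 1.77-fold with it. For Slc2a1, a brighter probe, the values were close, at 0.45 and 0.50.

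Beyond the members, 24 of 33 other hypoxia-inducible genes on the array were detected, of which 5 were called higher, 1 lower and 18 not, with a median of 0.08. Fam162a, a mitochondrial protein induced by HIF, rose most. Its control samples read 9.61, 9.62 and 9.60 and its moR-21 samples 10.60, 10.72 and 10.52. The difference was 1.004 ± 0.053 (SE, adjusted p = 7.26e-09, limma), or 2.01-fold.

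Tfrc, the transferrin receptor, whose mRNA is also stabilized when iron is short, rose by 0.74 ± 0.055 (SE, adjusted p = 2.13e-07), and its other probe rose by 0.71. After normexp the value of 0.74 was 1.26. Jmjd2b, a histone demethylase, rose by 0.53 ± 0.064 (SE, adjusted p = 2.18e-05), while its dimmer probe differed by 0.26 and was not called. Ak3l1, an adenylate kinase of mitochondria, was not above background on any of the 4 control arrays and was at least 1.27-fold higher after moR-21 (adjusted p = 7.22e-06). This bound sets the moR-21 mean against the lowest signal above background, with no allowance for the spread between samples.

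Cxcl12, a chemokine, gave contrary readings. Its brightest probe rose by 0.40 ± 0.053 (SE, adjusted p = 5.38e-05), a dimmer one fell by 0.39 and was called, and another differed by -0.36 and was not. The call of the brightest probe was lost after normexp, without control 1 and without moR-21 2, at differences of 0.40, 0.37 and 0.37. Plod2, a lysyl hydroxylase for collagen cross-links and a common HIF target, went the other way. It read 9.65, 9.67 and 9.66 in the control samples and 9.11, 8.95 and 8.998 in the moR-21 samples, and fell by 0.64 (SE 0.050, adjusted p = 3.70e-07).

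**Figure D4:**
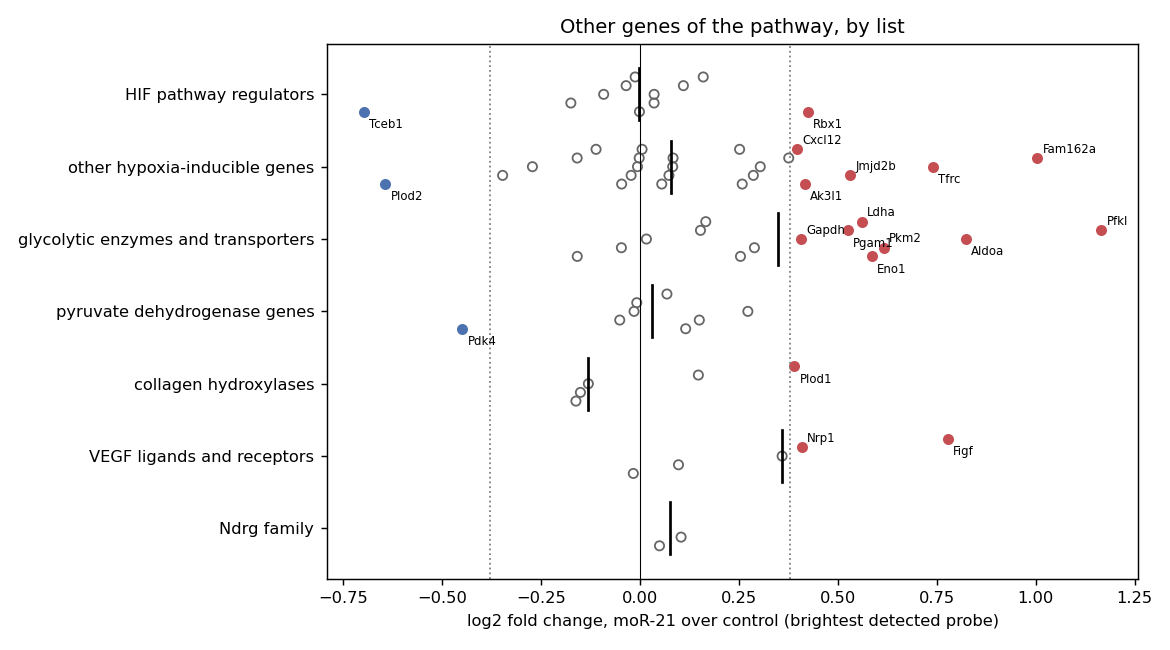
Log2 fold change of moR-21 over control for each detected gene of 7 lists around the members, at its brightest detected probe, filled red where called higher and blue where called lower, with the list median as a black bar and dotted lines at the fold cutoff of 1.3. The glycolytic list has 7 genes called higher and 0 lower, while the HIF regulators have 1 each way.

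The genes that control HIF had no common direction. Of 16 on the array 11 were detected, with 1 called higher, 1 lower and a median of -0.0013. The list mixes HIF subunits with genes that send HIF for degradation, so its median is not a reading of the pathway. Tceb1, which encodes elongin C of the Vhl ligase, read 8.50, 8.49 and 8.43 in the control samples and 7.77, 7.76 and 7.80 in the moR-21 samples. It fell by 0.70 (SE 0.045, adjusted p = 6.21e-08, limma). Rbx1, the ring protein of the same ligase, rose by 0.42 ± 0.051 (SE, adjusted p = 2.31e-05) at its brightest probe, and its dimmer probe differed by -0.04 and was not called. Genes of that list named for their role after their values were seen were Hif1a, at 0.16 (adjusted p = 0.0165), Vhl, at -0.17 (adjusted p = 0.0177), and Egln1, at 0.11 (adjusted p = 0.101), and none of these was called. The dimmer probes of Egln1 differed by 0.0012 and 0.043 and were not called. Epas1, Hif3a and Arnt2 were not detected. HIF protein was not measured on these arrays.

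The cell type label was checked against markers. Of 6 smooth muscle markers 4 were detected, with Acta2 at a mean log2 signal of 13.18 in the control and 13.58 in the moR-21 samples, while Myh11 and Cnn1, markers of the contractile state, were not detected and Tagln was not above background on any control array. Of 6 endothelial markers 1 was detected (Vwf, means of 6.89 and 6.94), and Pecam1, Cdh5, Tek, Emcn and Tie1 were not. The macrophage list had 2 of 6 on the array detected, among them Cd14 at 10.43 and 10.16, with Cd68, Emr1 and Ptprc undetected. At their lowest, the detection p-values of Tek and Cd68 were 0.01003 each, only just past the cutoff of 0.01. The mesothelial list had 2 of 4.

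Some markers moved with the members. The smooth muscle markers did not move together. Acta2 rose at all 4 of its probes, by between 0.40 and 0.81. Tagln was not above background on any control array. Its moR-21 mean was 1.078-fold above the lowest signal above background there, with no allowance for the spread between samples. Tagln was not called (adjusted p = 0.00367, limma). Des had all 3 moR-21 samples below all 3 control samples, with a difference of -0.38 (adjusted p = 8.60e-05, limma), just short of the fold cutoff and not called. Smtn differed by -0.049 at its brightest probe and by 0.051 and 0.010 at its dimmer ones. Upk3b of the mesothelial list fell by 1.24 (adjusted p = 2.51e-10, limma). The summed log2 signal of the detected markers was between 35.8 and 36.1 in the control and between 36.1 and 36.2 in the moR-21 samples for smooth muscle. For the mesothelial list it was between 16.5 and 16.7 and between 15.2 and 15.3. The endothelial list gave between 6.87 and 6.91 and between 6.89 and 6.98. The macrophage list lay between 17.28 and 17.33 in the control and between 16.99 and 17.04 in the moR-21 samples. The part of these markers in the differences of the hypoxia-inducible genes was not tested.

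The arrays themselves were alike. Their median deposited intensities ranged from 102 to 109 in the control and from 103 to 107 in the moR-21 group, with 10285 to 10512 probes detected per array. Arrays A and B of one sample differed at the 10 member probes by between 0.0046 and 0.33 log2 units, and the SDs within a group were between 0.018 and 0.14. The number of samples, 3 a group, limits the precision of each difference.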

How the data were processed

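RNA of 3 control and 3 moR-21 samples was measured on 8 Illumina bead arrays. The authors deposited non-normalized probe intensities from BeadStudio, with no background correction stated, and beside each intensity a deposited detection p-value. The submitters' processing notes name lumi, and the methods name 2 array designs. All columns were assigned to a sample by name, and 0 were left without a sample. Symbols are those of the table.

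Intensities of the 8 arrays were quantile normalized and log2 transformed, arrays of one sample were averaged, and limma (lmFit, eBayes) compared the groups over 11651 probes, those detected at p under 0.01 on 1 array or more. Adjustment was by Benjamini-Hochberg over all these probes, and calls needed an adjusted p under 0.002 with a fold change above 1.3. The script was tested on simulated data. The members and lists were chosen with earlier results of these data known, so no list is independent evidence of its direction. Lists were HIF pathway regulators, other hypoxia-inducible genes, glycolytic genes, pyruvate dehydrogenase genes, the Ndrg family, collagen hydroxylases, VEGF ligands and receptors, and markers of smooth muscle, endothelial, macrophage and mesothelial cells. The brightest detected probe stood for a list gene. Named were every member and, of each list but the markers, every called gene and the largest rise and fall. Others were named after their values were seen.

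Alternatives were normexp (offset 16), median scaling, cyclic loess, a stricter and no detection filter, array A or B alone, 8 arrays with duplicateCorrelation, trend and robust in eBayes, a replicate block, leaving out each sample, and cutoffs of 0.05 for the adjusted p or 1.5 for the fold change. Gene positions and promoter windows are from RefSeq (GRCm38.p6), and the array table gives no coordinates. Software was R 4.3.3, limma 3.58.1, Python 3.11.15, pandas 2.3.3 and matplotlib 3.10.9.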

Additional observations from a re-analysis of the deposited data

How the results depend on the processing

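The number of member probes called was 4 in all 18 alternatives except a fold change over 1.5, where it was 3, and normexp background correction, where it was 5 with Ankrd37 added. With a fold change over 1.5 the number of called genes was 4 for the glycolytic list, 1 for the HIF regulators, 3 for the other hypoxia-inducible genes and 0 for the pyruvate dehydrogenase genes, and over all probes it was 260 in place of 811. The other counts stayed within 1.5 times the reported ones. Of 160 member differences 153 moved by less than the SD between samples, and the 7 that moved more were all larger after normexp. Of 399 values for named genes of the lists, an alternative added after seeing the data, 11 lost the call, all for Cxcl12, Pgam1 or Plod1, and 0 changed direction while called. For Pgam1 the call was lost after normexp, with no detection filter and with array B alone, at differences of 0.61, 0.53 and 0.45. With the replicate block 4 member probes were called, and over all probes 815. Same-numbered samples correlated at 0.187, 0.0441 and 0.0597 in their deviations from the group means. Control 3 correlated slightly more with moR-21 2, at 0.0693, and the other pairs of unlike number had negative values. With 3 samples a group these correlations cannot settle whether same-numbered samples were paired. Over all probes normexp called 1180. The share of calls that were higher was between 41.4% and 47.2% under the scalings, and the median shift of all probes was at most 0.0081. Signal over background limits the dim probes, Ankrd37, Ndrg1, Egln3 and P4ha1 among them.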
